A study of Mus musculus with 6 samples.

Results

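The transcription factor p53 and 9 genes of its feedback loop and damage response were followed in LSK cells with and without an intact Atg5 gene. The genes were chosen by name as Trp53, which encodes p53, its inhibitors Mdm2 and Mdm4, and the targets Ccng1, Trp53inp1, Phlda3, Zmat3, Btg2, Gadd45a and Tnfrsf10b. The rule that picks them uses gene names and no measured value, although the names were proposed with earlier results of these data known. These 10 genes were among 15136 genes tested and held 21 of the 56605 probes of the array, of which 19 were bright enough to test. LSK cells (lineage-, Sca1+, cKit+) are the fraction of bone marrow that holds haematopoietic stem cells and early progenitors. Gene expression was measured on 1-colour microarrays, where each spot carries a probe of 60 bases and glows the brighter the more of its transcript is bound.

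The control group was Atg5w/w;Vav and the other group Atg5f/f;Vav, with 3 samples in each, all from C57BL/6 mice at postnatal days 6 to 8. Both groups carried the Vavi-Cre transgene, which is active in blood-forming cells, so that the groups differed in the floxed alleles of Atg5, a gene needed for autophagy. How many mice went into a sample is not given in the sources used here, so n counts arrays and p-values measure the spread between them. In the controls the probe for Atg5 had log2 signals of 1.10, 0.93 and 1.06, and where the label is Atg5f/f;Vav it had 1.46, 1.51 and 1.74. It was therefore higher where the gene is labelled as deleted (adjusted p = 0.0209 with limma), and since the deleted part of the gene is not given in the sources used here, the probe does not check the labels.

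p53 is made continuously and is destroyed about as fast, because Mdm2 attaches ubiquitin to it and Mdm4 blocks its ability to switch on genes. DNA damage and other stresses free p53 from both proteins, and p53 then raises the transcription of genes that stop the cell cycle, repair DNA or kill the cell, as well as of Mdm2 itself, which closes a feedback loop. Much of this control acts on the protein and is not seen in the level of Trp53 RNA. In haematopoietic stem cells p53 is known for keeping cells quiescent and for removing cells with damaged DNA.

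p53 recognises 2 copies of a 10-base palindrome, the p53 half-site, and the promoters below show where this sequence stands in the genes studied. Of the 10 genes, 7 had a promoter in the RefSeq table of GRCm38.p6, which gives 250 bases before and 50 after the start of transcription, and Trp53inp1, Zmat3 and Tnfrsf10b had none there. A half-site without any mismatch stood in 4 of the 8 promoters of these genes (Mdm4 has 2), and in 8.36% of all 32851 promoters of the same length. The palindrome reads the same on both strands. In the stretches of 60 bases before the start, the half-site is in capitals.
Ccng1, chr11:40755437-40755496, minus strand: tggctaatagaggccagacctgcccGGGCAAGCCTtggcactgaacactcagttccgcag
Gadd45a, chr6:67037413-67037472, minus strand: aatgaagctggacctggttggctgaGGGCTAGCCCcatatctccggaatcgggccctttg
Mdm2, chr10:117710910-117710969, minus strand: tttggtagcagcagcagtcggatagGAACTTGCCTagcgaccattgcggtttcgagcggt
Trp53, chr11:69580259-69580318, plus strand: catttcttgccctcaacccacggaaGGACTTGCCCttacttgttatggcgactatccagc
The half-sites began 185, 40, 186 and 75 bases before the start in Ccng1, Gadd45a, Mdm2 and Trp53. In Ccng1 the 10 bases just before the half-site matched it at 9 of 10 positions. Such a pair of adjoining half-sites with at most 1 mismatch stood in 0.0883% of all promoters and in no other promoter of these genes. The promoters of Btg2, Phlda3 and Mdm4 held no complete half-site in this window, which says nothing of sites elsewhere in these genes. Whether p53 bound any of these sequences was not measured.

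Of the array probes, 3 are printed to show which stretch of transcript they read, with mm9 positions, since the array was designed on that build. The first is the single probe of Trp53. The others are the dimmer probes of Mdm2 and Trp53inp1, which start at bases 322 and 659 of the transcript and lie closer to its beginning than the brighter probes that represent these genes. The 60 bases of the Mdm2 probe are spread over 2879 bases of the genome and so cross an intron.
Trp53, chr11:69403134-69403193, plus strand: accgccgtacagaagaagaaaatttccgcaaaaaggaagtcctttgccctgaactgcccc
Mdm2, chr10:117139375-117142253, minus strand: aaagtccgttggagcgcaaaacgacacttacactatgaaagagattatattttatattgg
Trp53inp1, chr4:11092530-11092589, plus strand: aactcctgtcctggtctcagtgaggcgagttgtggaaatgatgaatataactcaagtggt

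The 10 genes did not move together. In Atg5f/f;Vav LSK cells Gadd45a rose, Btg2 and Trp53inp1 fell, and the other 7 genes did not pass the test. This is 1 gene higher and 2 lower, against a background of 21.1% of all genes tested that were higher and 13.5% that were lower at an adjusted p below 0.05 (34.7% in either direction). With the 75th percentile taken over detected probes alone, 1924 genes were higher and 3992 lower in place of 3198 and 2048, and the calls among the 10 genes were 3, all lower. The 3 calls are thus close to what the background rate gives. The fitted difference was above 0 for 4 genes and below 0 for 6, and the median log2 difference of the 10 genes was -0.05, beside 0.02 for all genes. All arrays of 1 group lay above all of the other for 5 of the 10 genes, and this held for 57.6% of all genes tested. Of the 19 probes tested, 5 passed the threshold, where the share of all probes was 34.4%.

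**Figure D1:**
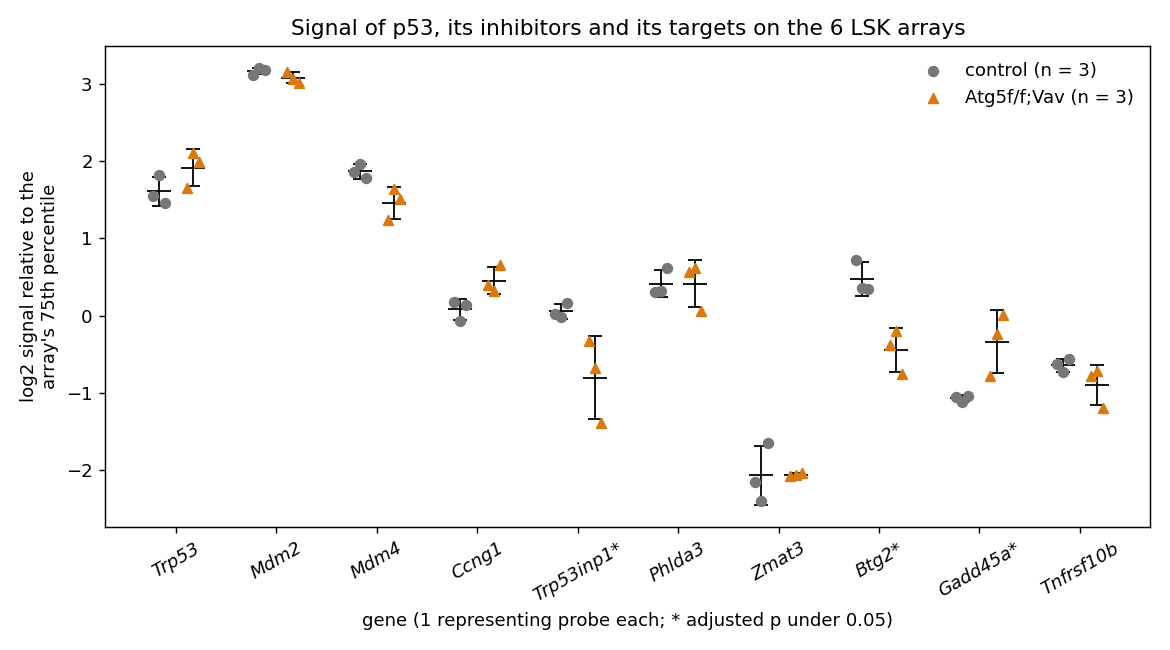
Log2 signal of the representing probe of each gene relative to the 75th percentile of its array, for 3 control arrays (grey circles) and 3 Atg5f/f;Vav arrays (orange triangles), with the mean and SD of each group as bars. The groups lie apart for Mdm4, Ccng1, Trp53inp1, Btg2 and Gadd45a, and an asterisk marks the 3 genes that passed the test; heights of different genes cannot be compared, since each has its own probe.

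All values are log2 intensities minus the 75th percentile of the same array, so that 0 is the level of that percentile, and differences are Atg5f/f;Vav minus control. Brightness differs between probes for reasons other than transcript amount, so the levels of different genes were not ranked. Fewer cells that express a gene and less RNA per cell cannot be told apart in these samples. Differences were tested with limma, with p-values adjusted over all 32074 probes tested. An exact permutation test on a single gene cannot go below p = 0.1 with 3 arrays against 3.

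Trp53 itself was measured by 1 probe. Its log2 signals were 1.55, 1.82 and 1.45 in the controls and 1.64, 2.10 and 1.99 in the Atg5f/f;Vav samples. The highest control array lay above the lowest Atg5f/f;Vav array. The difference was 0.30 (95% interval -0.09 to 0.70, adjusted p = 0.181 with limma), an interval that holds both no difference and a rise of 0.70. Under the alternatives it ranged from 0.10 to 0.44 and did not pass in any of 17. Wrap53, which starts beside Trp53 on the opposite strand and overlaps it, was higher by 0.68 (adjusted p = 0.0233).

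Mdm2, the ubiquitin ligase that both removes p53 and is switched on by it, was measured by 2 probes that did not give the same size of difference. At the brighter probe, on chr10:117126010-117126069 near the end of the transcript, the log2 signals were 3.12, 3.20 and 3.18 in the controls and 3.15, 3.06 and 3.01 in the Atg5f/f;Vav samples. The groups overlapped there, and the difference was -0.09 (95% interval -0.33 to 0.15, adjusted p = 0.514). At the dimmer probe printed above, which starts at base 322 of the transcript, the values were -1.19, -1.004 and -1.32 against -1.70, -1.47 and -1.41. All 3 Atg5f/f;Vav arrays lay below all controls at this probe, but the difference of -0.35 did not pass (adjusted p = 0.0807). It passed with the 75th percentile taken over detected probes alone (-0.56, adjusted p = 0.0245), and under no other alternative, with adjusted p up to 0.237. With quantile normalisation the brighter probe gave -0.36 and passed (adjusted p = 0.0486, the lowest over the alternatives for this probe, where the highest was 0.706).

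Mdm4, the relative of Mdm2 that silences p53 without degrading it, was the member with the most probes. All 6 gave a negative difference and none passed in limma, with 1 at an unadjusted p below 0.05. At the brightest, which matches an Ensembl transcript without a RefSeq record and lies on chr1:134896049-134896108, the log2 signals were 1.85, 1.97 and 1.78 in the controls and 1.23, 1.64 and 1.51 in the Atg5f/f;Vav samples. The groups did not overlap, and the difference was -0.41 (95% interval -0.74 to -0.08, adjusted p = 0.0588). The other 5 probes, which read other stretches of the gene, gave -0.42, -0.34, -0.36, -0.24 and -0.14, with adjusted p from 0.106 to 0.476. The call for Mdm4 thus sat at the threshold, and it passed under 5 of 17 alternatives, with adjusted p from 0.0207 to 0.0470 in those.

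**Figure D2:**
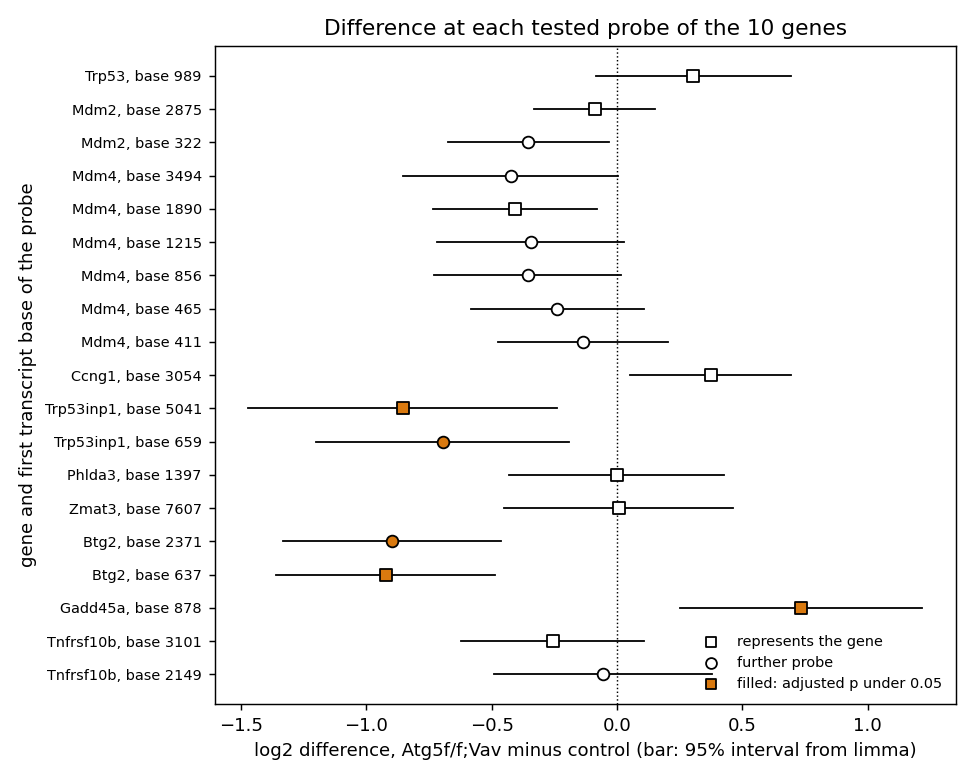
Log2 difference, Atg5f/f;Vav minus control, at the 19 tested probes of the 10 genes, each named by its gene and the first transcript base it covers, with its 95% interval from limma. Squares represent the gene, circles are further probes, and filled symbols passed the test: both probes of Btg2 and of Trp53inp1 lay below 0, the Gadd45a probe lay above 0, and the 6 Mdm4 probes lay between -0.42 and -0.14.

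Among the targets, Btg2 gave the strongest call. Btg2 encodes an antiproliferative protein that recruits the enzymes that shorten the poly(A) tails of mRNAs. At its brighter probe, on chr1:135973828-135973887, the log2 signals were 0.72, 0.36 and 0.34 in the controls and -0.38, -0.20 and -0.76 in the Atg5f/f;Vav samples. Every Atg5f/f;Vav array lay below every control, by 1.90-fold between the means (log2 difference -0.92, SE 0.18, adjusted p = 0.0171). A further probe on chr1:135972094-135972153 read -0.48, -0.96 and -0.91 against -1.43, -1.71 and -1.90. The groups lay apart again, and the difference of -0.90 was of the same size (adjusted p = 0.0178). Without control 1 or control 2 the adjusted p of Btg2 was 0.0689 and 0.0697.

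Trp53inp1, whose product binds p53 and also takes part in autophagy through the Atg8 family, fell as well. At the probe near the end of the transcript, on chr4:11101174-11101233, the log2 signals were 0.02, -0.02 and 0.16 in the controls and -0.33, -0.68 and -1.39 in the Atg5f/f;Vav samples. The control arrays lay close together, with an SD of 0.09, while the Atg5f/f;Vav arrays spread over more than 1 log2 unit, with an SD of 0.54. The difference was -0.86, a 1.81-fold lower level (SE 0.26, adjusted p = 0.0431). The dimmer probe printed above gave -2.06, -2.11 and -2.01 against -2.96, -2.26 and -3.04. The groups lay apart here too, with a difference of -0.70 (adjusted p = 0.0437). Both adjusted p-values were near the threshold, and the call for Trp53inp1 was lost without control 1, 2 or 3 (adjusted p = 0.109, 0.110 and 0.106) or without Atg5f/f;Vav 2 (0.0724).

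Gadd45a, a stress sensor that binds PCNA and the kinases of the cell cycle, was the single gene of the 10 to rise. At its probe on chr6:66985376-66985435 the log2 signals were -1.05, -1.12 and -1.04 in the controls and -0.78, -0.24 and 0.01 in the Atg5f/f;Vav samples. Again the controls were close together (SD 0.04) and the Atg5f/f;Vav arrays wide apart (SD 0.41), with no overlap. The difference was 0.73, a 1.66-fold higher level (SE 0.20, adjusted p = 0.0339). The other Gadd45a probe matches a different transcript and was not well above background on any array. The call was lost on leaving out control 1, 2 or 3 (adjusted p = 0.0967, 0.109 and 0.0734) or Atg5f/f;Vav 2 or 3 (0.0827 and 0.0551), and under a 75th percentile taken over the detected probes alone (difference 0.53, adjusted p = 0.0641).

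Ccng1 encodes cyclin G1, which guides a phosphatase to Mdm2, and its promoter holds the adjoining half-sites printed above. Its log2 signals, read on chr11:40562427-40562486, were 0.17, -0.07 and 0.14 in the controls and 0.40, 0.32 and 0.65 in the Atg5f/f;Vav samples. All 3 Atg5f/f;Vav arrays lay above the controls, but the difference of 0.37 did not pass (95% interval 0.05 to 0.70, adjusted p = 0.0694). It passed under 1 of 17 alternatives, the normexp background correction (adjusted p = 0.0475, in a range up to 0.273).

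Phlda3, which holds back the kinase Akt at the membrane, and Zmat3, an RNA-binding zinc finger protein, had fitted differences near 0. Phlda3 read 0.31, 0.32 and 0.61 in the controls and 0.56, 0.61 and 0.06 in the Atg5f/f;Vav samples, on chr1:137665642-137665701. Zmat3 read -2.15, -2.39 and -1.65 against -2.07, -2.06 and -2.04, on chr3:32233831-32233890. In both genes the groups overlapped and 1 array stood away from its group, Atg5f/f;Vav 3 for Phlda3 and control 3 for Zmat3. The intervals were wide enough to hold a shift of about 0.43 either way for Phlda3 (-0.43 to 0.43, adjusted p = 0.996) and of -0.45 to 0.46 for Zmat3 (adjusted p = 0.979).

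Tnfrsf10b encodes the receptor for the death ligand TRAIL. Its brighter tested probe, on chr14:70184141-70184200, read -0.63, -0.73 and -0.57 in the controls and -0.78, -0.72 and -1.20 in the Atg5f/f;Vav samples. The groups overlapped by a small margin, and the difference of -0.26 did not pass (95% interval -0.62 to 0.11, adjusted p = 0.223). The second tested probe gave -0.06 (adjusted p = 0.830), and the remaining probe, which matches another transcript, was not well above background on any array.

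**Figure D3:**
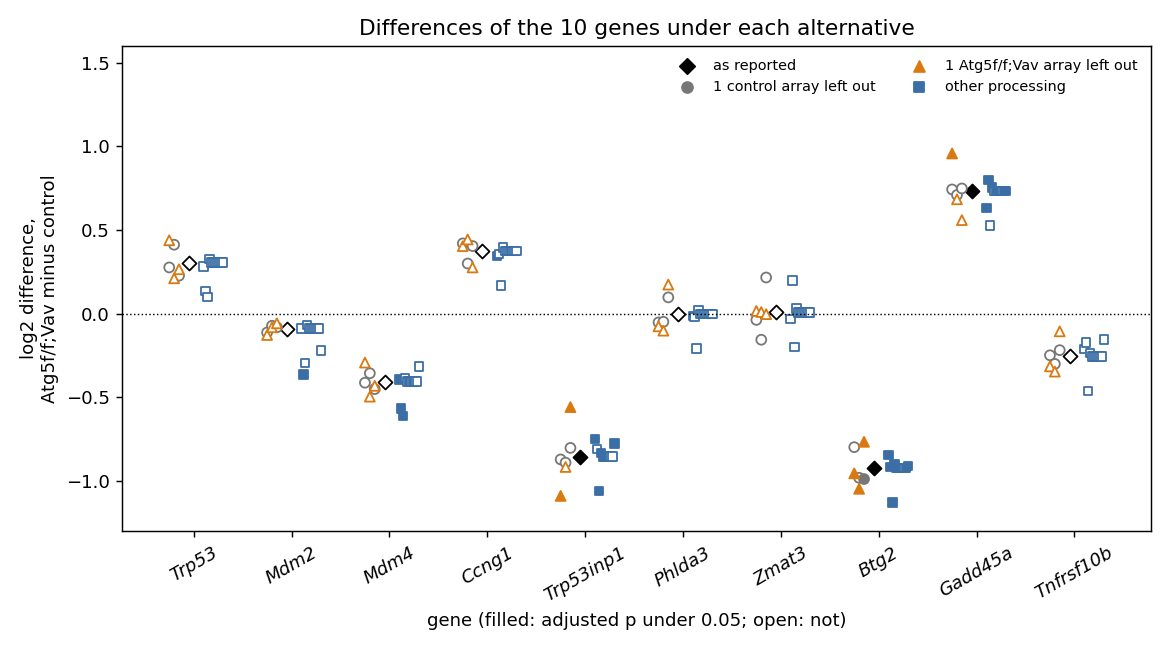
Log2 difference, Atg5f/f;Vav minus control, of each gene as reported (diamonds), with 1 control array left out (circles), with 1 Atg5f/f;Vav array left out (triangles) and under other processing (squares); filled symbols passed at an adjusted p below 0.05. Btg2 and Trp53inp1 lay below 0 and Gadd45a and Trp53 above 0 in every setting drawn, while Phlda3 and Zmat3 lay on both sides of 0.

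The 3 genes that passed kept their direction under every alternative run, while the calls did not all hold. Over the 17 alternatives the difference of Btg2 ranged from -1.13 to -0.77 and passed in 14 (adjusted p from 0.00464 to 0.0697), that of Trp53inp1 from -1.09 to -0.56 and passed in 9 (0.0147 to 0.124), and that of Gadd45a from 0.53 to 0.96 and passed in 9 (0.0164 to 0.109). Without control 1 or without control 2, none of the 10 genes passed in limma, and 4 and 3 of them had an unadjusted p below 0.05. The calls over all genes fell at the same time, from 5246 to 160 without control 1 and to 122 without control 2.

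Outside the 10 genes, other known p53 targets were described by role. Of 38 listed, 36 were measured, and Eda2r and Dram1 were not above background on any array. In all, 9 were higher, 5 were lower and 22 did not pass, which is 25% higher and 13.9% lower, near the background of all genes. The 5 include Rprm, which entered the test through the controls, as given below. Their median log2 difference was 0.18. With the 75th percentile taken over detected probes alone, which lowered the median of all genes to -0.19, the same targets gave 6 higher and 11 lower with a median of -0.03, so the balance between rises and falls depended on the scaling.

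Of 11 measured apoptosis targets, by the brightest probe of each, 6 rose, none fell and 5 did not pass. The share that rose was 54.5%, beside 21.1% of all genes, and the median was 0.47. Without control 1 or without control 2 none of the 11 passed, with medians of 0.53 and 0.44. Without a filter on dim probes 3 rose, and with an intensity trend 9 did. Siva1 passed as higher at its dimmer probe alone (0.41, adjusted p = 0.0434). Aen rose at its brightest probe (0.89), while its others gave 0.86, 0.93, 1.10 and -0.16. The most changed were Pmaip1 (log2 difference 1.70, adjusted p = 0.0381), which encodes the BH3-only protein Noxa, Steap3 (1.67, adjusted p = 0.0173), a metalloreductase of endosomes, and Bax (0.93, adjusted p = 0.0151), the pore former of mitochondrial cell death. Bax read 2.35, 2.35 and 2.74 in the controls and 3.23, 3.44 and 3.57 in the Atg5f/f;Vav samples, so the groups lay well apart, and a second Bax probe gave 1.07. Pmaip1 read -4.07, -4.21 and -2.38 against -2.02, -2.15 and -1.37, where control 3 lay close to the Atg5f/f;Vav arrays. The median of the list stayed above 0 under each of the 3 other scalings tried, at 0.47 with normexp, 0.57 with quantile normalisation and 0.26 with detected probes alone, where 4 rose and 1 fell.

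Of 7 measured cell cycle arrest targets, Cdkn1a and Pml rose, 1 was called lower and 4 did not pass. This is 28.6% higher and 14.3% lower, beside 21.1% and 13.5% of all genes tested. None of the 7 passed without control 1 or without control 2. The median of the list was -0.13, but it counts Rprm, which is described below and not read by size, so the list is given no direction. The sign of the median also depended on the setting. With a filter on all 6 arrays, which leaves out Rprm and Ptprv, it was 0.34 over the 5 genes left. Under quantile normalisation it was 0.09, and without Atg5f/f;Vav 3 it was 0.002. Cdkn1a, which encodes the cyclin-dependent kinase inhibitor p21, read -1.84, -1.40 and -0.95 in the controls and -0.15, -0.35 and -0.27 in the Atg5f/f;Vav samples. Every Atg5f/f;Vav array lay above every control, and the difference was 1.14, or 2.20-fold (adjusted p = 0.0168). Pml, the organiser of nuclear bodies, was higher by 0.34 (adjusted p = 0.0429). The gene called lower was Rprm (adjusted p = 0.0348), which was well above background on the 3 control arrays but on only 1 Atg5f/f;Vav array. It thus entered the test through the group where it was brighter, its low level was not measured on the other arrays, and the fitted -1.74 is not read as the size of a fall.

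Among the targets of other roles, 1 of 6, 3 of 10 and 1 of 2 passed, where 34.7% of all genes did. These counts use the brightest probe of each gene. Among 6 genes of DNA repair and nucleotide supply, Polk, a translesion polymerase, fell by 0.64 on the log2 scale (adjusted p = 0.0224). None rose, and the median was -0.29. A dimmer probe of Ercc5 also passed as lower (-1.15, adjusted p = 0.0168), where its brightest gave -0.27 and its dimmest 0.03. Among 10 genes of metabolism and redox control, Gls2, the p53-induced glutaminase, rose (1.42, adjusted p = 0.0322), and Ak1 (-1.15, adjusted p = 0.0283), an adenylate kinase, and Sesn1 (-0.81, adjusted p = 0.0318), a sestrin that restrains mTORC1, fell. The median of that list was 0.13 and turned to -0.07 with detected probes alone, and Gls2 was well above background on 2 of the 3 control arrays. Of the pair of targets tied to stem cell quiescence, Ndn, which encodes necdin, fell (-1.32, adjusted p = 0.0217) and Gfi1 gave -0.76 (adjusted p = 0.0969).

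**Figure D4:**
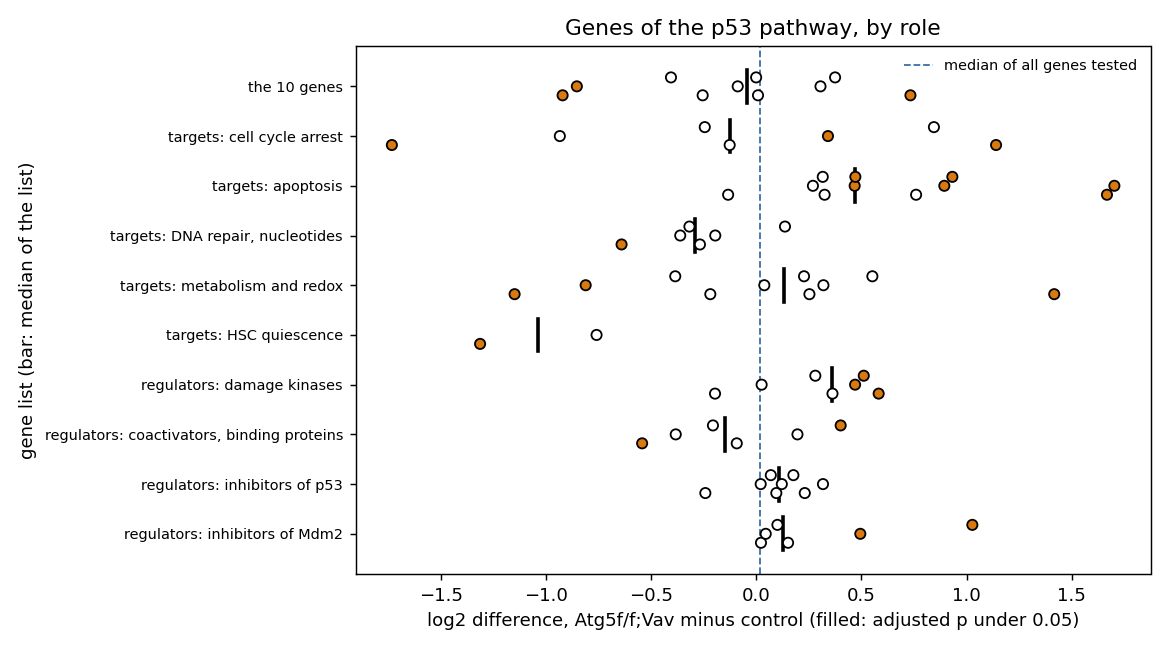
Log2 difference, Atg5f/f;Vav minus control, of each measured gene of the p53 pathway by role, with the median of each list as a bar, the median of all genes as a dashed line, and filled symbols where the adjusted p was below 0.05. The 10 genes lie on both sides of 0, 6 of 11 apoptosis targets are filled on the right, and no gene in the row of inhibitors of p53 is filled. Each gene is drawn by its brightest probe alone.

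Among regulators that act on p53, by the brightest probe of each, 6 were called higher, 1 was called lower and 20 did not pass. This is 22.2% higher and 3.7% lower, beside 21.1% and 13.5% of all genes tested. The rises include Atr and Trp53bp1, whose other probes did not show a rise, as given below. Of 28 listed, 27 were measured, and Cdkn2a, which encodes the Mdm2 inhibitor Arf, was not well above background on any array. Among 7 damage kinases, Atr (0.58, adjusted p = 0.0312), Atm (0.51, adjusted p = 0.0470) and Chek2 (0.47, adjusted p = 0.0227) rose and none fell at its brightest probe, although none passed with detected probes alone. At dimmer probes Hipk2 passed as lower (-0.59, adjusted p = 0.0294) and Chek1 as higher (0.43, adjusted p = 0.0436). The rise of Atr rests on the brightest of its 8 probes, since the other 7 gave -0.18 to 0.14 and the mean of its probes gave 0.04 (adjusted p = 0.777). Atm gave 0.42 as the mean of its probes and did not pass (adjusted p = 0.0599). Among 6 coactivators and binding proteins, Crebbp, a histone acetyltransferase, fell (-0.54, adjusted p = 0.0421). A dimmer probe of Ep300 also passed as lower (-0.52, adjusted p = 0.0196), where its other probes gave -0.09 and -0.15. Trp53bp1, which marks double-strand breaks, was higher at its brightest probe (0.40, adjusted p = 0.0322), but its other 4 probes were on the other side at -0.28, -0.56, -0.53 and -0.79, of which the last passed (adjusted p = 0.0179). The mean of its probes gave -0.35 (adjusted p = 0.0641), so no direction is given for Trp53bp1. Of 8 ubiquitin ligases, phosphatases and other genes listed as inhibitors of p53 none passed at its brightest probe in limma, and 1 had an unadjusted p below 0.05. At dimmer probes Huwe1 was called lower (-0.56 and -1.05, adjusted p = 0.0301 and 0.0311), while its brightest gave 0.32 (adjusted p = 0.0881). A dim probe of Ppm1d also passed as lower (-0.56, adjusted p = 0.0492), where its other probes gave 0.02 and -0.13. Of 6 measured inhibitors of Mdm2, the nucleolar proteins Gnl3 (1.03, adjusted p = 0.0168) and Npm1 (0.49, adjusted p = 0.0417) rose, and the 4 ribosomal proteins Rpl5, Rpl11, Rpl23 and Rps7 had differences between 0.02 and 0.15. Of the p53 family, Trp63 fell (-0.65, adjusted p = 0.0287) and Trp73 gave 0.13 (adjusted p = 0.489).

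Of the 66 genes of these lists, 23 passed in all, Rprm among them, which is close to the 34.7% of all genes tested that passed. Leaving out control 1 or control 2 left none (24 and 23 at an unadjusted p below 0.05), leaving out control 3 left 14, leaving out Atg5f/f;Vav 2 left 12, and the range over single arrays left out was 0 to 22.

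Other gene groups moved between the same arrays, and their part in the results on the p53 pathway was not tested. The calls in them stand beside 21.1% of all genes tested that were higher and 13.5% that were lower. Without control 1 only 160 of all genes passed, and without control 2 only 122. All 14 proliferation genes were higher. Their summed signal (in units of the 75th percentile) was 129 to 171 in the controls and 224 to 298 in the Atg5f/f;Vav samples. None of the 14 passed without control 1 or without control 2, where their medians were 0.82 and 0.71. Without a filter on dim probes 6 of them passed. Of 8 stem cell markers 5 were lower (45.3 to 49.3 against 15.4 to 28.6), and none of the 8 passed without control 1 or without control 2. Of the genes of the sorting gate, Ly6a, which encodes Sca1, was higher by 1.57 (adjusted p = 0.00623), and Kit gave -0.38 (adjusted p = 0.0563) at its brightest probe and passed at its other 2 probes (-0.67 and -0.62, adjusted p = 0.0207 and 0.0230). Both were well above background on every array. All 6 neutrophil markers were lower (77.4 to 161 against 37.0 to 66.6), as were 3 of 5 stromal markers (9.64 to 39.6 against 5.37 to 8.54). The lower stromal marker Col1a1 and the lower megakaryocyte marker Ppbp were well above background on the control arrays alone, and so entered the test only through the group where they were brighter. Of 4 myeloid progenitor markers 3 were higher (73.1 to 175 against 206 to 260). Of 8 erythroid markers 3 were higher and 4 lower (221 to 504 against 74.4 to 113). Car1, Klf1 and Epor were higher (3.80, 2.95 and 2.08), and Hba-a1, Hbb-b1, Slc4a1 and Alas2 lower (-2.26, -1.92, -2.29 and -2.07). The sum mostly follows Hba-a1, the brightest probe of this list, and does not show the rises. Of 5 B cell markers 1 was higher (1.37 to 3.12 against 2.91 to 7.21). It was Cd79a, which was dim and well above background on only 4 of the 6 arrays. Of 4 megakaryocyte markers 1 was higher and 1 lower (1.21 to 1.35 against 1.72 to 2.92). None of 3 macrophage (4.60 to 6.19 against 6.41 to 6.52) or 3 T and NK cell markers (5.61 to 5.86 against 3.91 to 6.23) passed. At an unadjusted p below 0.05 there was no macrophage marker and 1 T and NK cell marker, Klrb1c, well above background on only 3 arrays. Between 57.6% and 58.2% of probes were well above background in the controls and between 51.6% and 54.8% in the others. The 6 arrays shared 1 slide, its first row holding the controls and its other row the Atg5f/f;Vav samples, so an effect of the row cannot be told apart from that of the genotype.

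The genes whose pattern over the 6 arrays was closest to that of Trp53 or Mdm2 were found by the root mean square difference of log2 signals, each centred on its own mean, among 13706 genes above background on all arrays. Nearest to Trp53 were Gm5547 (0.030), Usp36 (0.036), Cdh8 (0.058), Scyl3 (0.071) and Slc30a2 (0.076). Nearest to the brighter Mdm2 probe were Rbm18 (0.020), Ugdh (0.025), Tsacc (0.027), Gpatch8 (0.029) and Gpatch2 (0.029). Trp53 in this centred form ran from -0.31 on control 3 to 0.34 on Atg5f/f;Vav 2, whereas Mdm2 stayed between -0.11 and 0.08. With 6 points, many genes can come close to any pattern, and the nearest ones are given as a description.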

How the data were processed

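RNA of sorted LSK cells was hybridised by the authors to 1-colour Agilent arrays, 1 per sample. The authors deposited, per the file headers, the intensity of each spot from Agilent Feature Extraction 12.0.3.1, corrected for background and detrended, with flags for background, saturation and outliers coded as other values in the deposited files. A table of normalised signal was also deposited by the authors, which is the intensity over the 75th percentile of all spots of the array. From the deposited intensity, log2 values minus the 75th percentile of each array's 59305 spots that are not controls were computed here. Spots marked as outliers (64 to 81 per array) were left out, no spot was saturated, and spots of 1 probe were averaged.

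A probe entered the test if it was well above background on 3 or more arrays. Differences came from lmFit and eBayes of limma 3.58.1 (R 4.3.3), were 2-sided and were adjusted by Benjamini-Hochberg over 32074 probes with a threshold of 0.05, and the step was tested on simulated data. Genes are those matched to RefSeq by symbol or synonym, each represented by its brightest tested probe. The number of arrays limits the precision. Groups follow the sample labels. The 10 genes and the lists were chosen with earlier results of these data known. Named were every probe of the 10 genes, at most 3 genes each way of a pathway list with the largest difference among those that passed, the 5 genes nearest to Trp53 and to Mdm2, and Atg5; genes of a list named beyond this were chosen after their values were seen. Alternatives were normexp (offset 50), quantile normalisation, a percentile over detected probes, the deposited table, other filters, outliers kept, an intensity trend, the methods' t-test, a replicate block, the mean of a gene's probes, and each array left out. Promoters came from RefSeq (GRCm38.p6). Figures were drawn with matplotlib 3.10.9.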

Additional observations from a re-analysis of the deposited data

How the results depend on the processing

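Over 17 alternatives, Trp53, Mdm2, Mdm4, Ccng1, Trp53inp1, Btg2, Gadd45a and Tnfrsf10b kept their direction. Zmat3 reversed to -0.0332 with normexp, -0.20 with a 75th percentile over detected probes, -0.04 without control 1, -0.16 without control 2 and -0.003 without Atg5f/f;Vav 3, and Phlda3 reversed to 0.0204 with the deposited table, 0.10 without control 3 and 0.17 without Atg5f/f;Vav 3, where single arrays left out gave a range of -0.16 to 0.22 for Zmat3 and -0.10 to 0.17 for Phlda3; neither gene passed in any of them. Without a filter on dim probes, 4538 probes, 1986 genes, 1 of the 10 genes and 5 pathway genes passed, where more probes share the adjustment. With the methods' t-test and Benjamini-Hochberg adjustment 0 probes, 0 genes, 0 of the 10 and 0 pathway genes passed, with 13539 probes, 6583 genes, 4 of the 10 and 30 pathway genes at an unadjusted p below 0.05. With normexp, 5 of the 10 genes passed (Mdm4 and Ccng1 added), and the cause was not tested. Leaving out 1 array gave 251 to 10304 probes, 122 to 5067 genes, 0 to 3 of the 10 genes and 0 to 22 pathway genes, with the lowest values without control 1 or control 2. With a 75th percentile over detected probes, 1924 genes were higher and 3992 lower, against 3198 and 2048 as reported, and 3 of the 10 genes passed, all lower (Mdm4, Btg2 and Trp53inp1).

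Whether the replicate numbers of the labels pair the samples could not be decided from 3 arrays per group. Deviations of same-numbered arrays correlated at -0.07, 0.19 and 0.11, and those of differently numbered arrays at -0.30 to 0.13. With the replicate number as a block, 10173 probes, 4829 genes, 2 of the 10 genes and 21 pathway genes passed, and Trp53inp1 did not (adjusted p = 0.0715). With a single slide and a single scan, no fit with either as a block was possible. A gene that did not pass is not shown to be unchanged.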
